A study of Mus musculus with 18 samples.

Results

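Sirt6, the RNA-binding protein gene Lin28b and the growth genes that the microRNA let-7 holds down were examined in mouse pancreatic ductal adenocarcinoma (PDAC) lines. The genes were taken as an oncofetal group, chosen with earlier results of these data known: Sirt6, Lin28a, Lin28b, Igf2bp1, Igf2bp2, Igf2bp3, Hmga1, Hmga2 and Igf2. Of these 9 names, 8 matched a row of the deposited expression table, out of 16383 genes, and Lin28a is not analysed here. Of the 8 genes, 7 passed the filter on low values (at least 1 CPM, read counts scaled to a common library total, in at least 4 libraries) and were tested among 12931 genes. Igf2 did not pass and is given as values.

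RNA-seq libraries were made from 6 cell lines grown out of spontaneous metastases, lines 42-3 and 6-2 from the lung and lines 42-2, G45-2, 6-3 and 13-2 from the liver. Each was infected with lentivirus for a non-targeting (NT) hairpin or for 1 of the hairpins called Gstt1 shRNA 1 and Gstt1 shRNA 2, and puromycin selection lasted 48 h. Gstt1 encodes a glutathione transferase. There were 8 NT controls, 6 shRNA 1 and 4 shRNA 2 libraries, in 8 culture sets of a control with the knockdowns of its own line, and lines 42-3 and 42-2 had 2 sets each (first and second). The genotype labels of lines 6-2, 42-2, G45-2 and 6-3 and of the second 42-3 set include floxed Sirt6 (SIRT6F/F) with p48+ and Tp53F/+. That of the first 42-3 set includes SIRT6F/F with p48-Cre and p53F/+, and those of both line 13-2 libraries include p48+ and Tp53F/+. All libraries thus share the p48 and p53 alleles, and line 13-2 alone lacks the floxed Sirt6 alleles in its label. The p48 gene is active in the embryonic pancreas and in acinar cells, so Cre driven from it acts in the pancreatic lineage. The group without floxed Sirt6 is 1 line from 1 liver metastasis with 1 control and 1 knockdown library. Nothing in the labels says that libraries of a line came from separate cultures, so the p-values reflect variation among the samples at hand, part of which may be technical.

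LIN28A and LIN28B bind the let-7 precursor and block its maturation, and let-7 in turn represses Lin28 genes, Hmga2, the Igf2bp genes and other growth genes that are active in the foetus. SIRT6 is a histone deacetylase that keeps chromatin closed at glycolytic and developmental genes, and in PDAC its loss has been linked to activation of Lin28b and its downstream genes. IGF2BP proteins stabilise bound mRNAs, among them Igf2 and Myc, HMGA proteins bend DNA at promoters, and IGF2 is a foetal growth factor.

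The pairing that ties these genes together is short. The mature let-7 RNAs were not measured in these libraries. Of 11 mature let-7 family sequences of the mouse in RefSeq (GRCm38.p6), 10 carry the same seed (bases 2 to 8, counted from the 5′ end) and let-7j carries another. The difference is shown with let-7a as the type sequence, let-7d for its first base, miR-98 for its name and let-7j for its seed, with the seed in capitals.
let-7a-5p: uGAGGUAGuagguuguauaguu
let-7d-5p: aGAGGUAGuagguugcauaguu
miR-98-5p: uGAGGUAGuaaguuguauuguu
let-7j: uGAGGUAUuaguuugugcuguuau
The complement of the common seed, CTACCTC, was searched for on the transcript strand of the longest annotated 3′UTR of each gene (GENCODE M21 on GRCm38, a later build than the mm9 of the files, used for sequence only), and CTACCTCA, the same match with an A after it, is a subset of these. A 3′UTR was found for 20971 genes, of which 8.96% held the 7-base match and 3.02% the 8-base match. Lin28b, Igf2bp1 and Hmga2 each held 4 matches of 7 bases, and 4 or more were found in 12 of 20971 genes (0.0572%). Among 3′UTRs of 80% to 125% of its length, 0.297% held 4 or more matches for Lin28b (1346 3′UTRs), 0.333% for Igf2bp1 (601) and 0.124% for Hmga2 (2414). The matches of these genes are shown with the match in capitals, to make visible which carry the closing A.
Lin28b match 1: gggcgggaagtCTACCTCAtgcaagcacag
Lin28b match 2: cttgttagtaaCTACCTCtgagtttgaca
Lin28b match 3: acagcacatggCTACCTCccagctaccac
Lin28b match 4: gatggcaccgaCTACCTCttcaatcactt
Igf2bp1 match 1: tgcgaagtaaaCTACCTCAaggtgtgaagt
Igf2bp1 match 2: agtgctattaaCTACCTCAgccccagaggg
Igf2bp1 match 3: aaatggatgaaCTACCTCAgtcctcacagt
Igf2bp1 match 4: ttggttttaatCTACCTCttagcaaaaca
Hmga2 match 1: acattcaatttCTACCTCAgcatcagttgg
Hmga2 match 2: actcctcaataCTACCTCtgaatgctaca
Hmga2 match 3: tttgcaaggaaCTACCTCcacacttccaa
Hmga2 match 4: aaaacacactaCTACCTCttaagtcccag
Igf2bp2, Igf2bp3 and Hmga1 held 1 match each, shown for the same reason, and Sirt6 (626 bases) and Igf2 (3050 bases) held none.
Igf2bp2 match: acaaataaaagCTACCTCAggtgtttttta
Igf2bp3 match: tttttactcaaCTACCTCAggtattcagta
Hmga1 match: ctgttcacaaaCTACCTCtggacggttgt
The Lin28b matches begin at bases 36, 2410, 2582 and 3998 of a 3′UTR of 4445 bases, and the Hmga2 matches at bases 58, 1295, 1733 and 2591 of 3014 bases. A match of letters is a description and not a measured site.

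**Figure D1:**
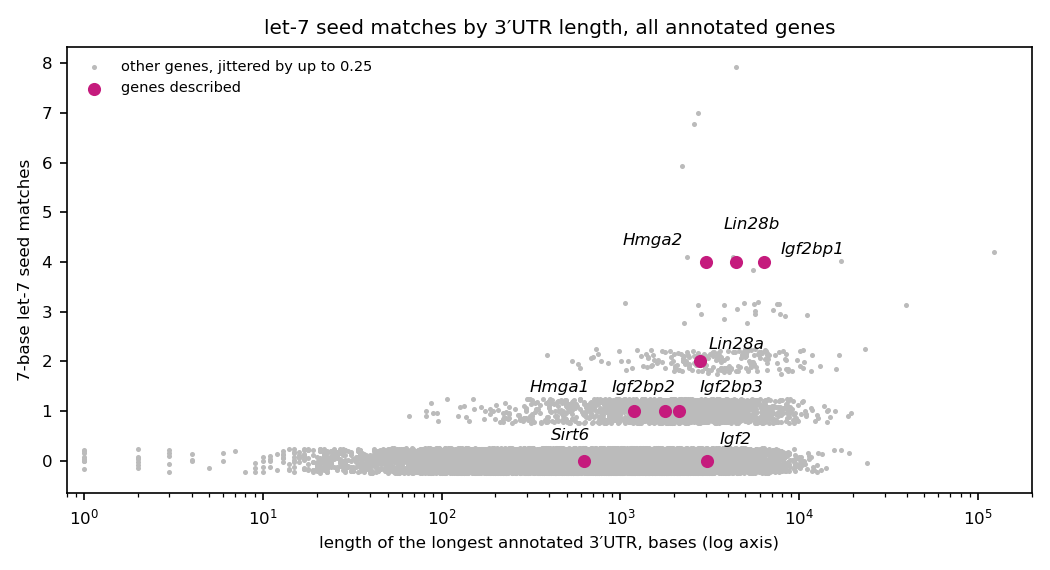
The number of 7-base let-7 seed matches (vertical) is plotted against the length of the longest annotated 3′UTR in bases (horizontal, log axis) for 20971 genes, grey points being jittered vertically. Lin28b, Igf2bp1 and Hmga2 lie at 4 matches, Lin28a at 2, Igf2bp2, Igf2bp3 and Hmga1 at 1, and Sirt6 and Igf2 at 0.

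Library depth was 8411436 to 25552912 reads, so that 3 reads, the limit that a count of 0 allows, corresponded to 0.117 to 0.357 CPM. Gstt1, the targeted gene, was lower than in its own control in all 10 knockdown libraries (0.616 to 52.5 CPM in controls, 0.0687 to 23.9 CPM in knockdowns). The extent was uneven. Both 42-2 controls were already low (2.67 and 0.616 CPM), and shRNA 1 left 54.5% of the control level in line G45-2 and 75.4% in line 6-3. Several libraries stood apart from their labels. The library most like it across 12931 genes belonged to another line for 9 of 18 libraries. In 5 of 8 sets (both 42-3 sets, 6-2, the first 42-2 set and 13-2), at least 2 of 7 identity transcripts (Cdkn2a, Cdkn2b, Xist, and Uty, Kdm5d, Ddx3y and Eif2s3y of the Y chromosome) differed at least 10-fold between control and knockdown. A transcript counted only where the higher of the 2 libraries held at least 10 CPM. These limits were chosen with the values known. Results are therefore given with and without those 5 sets. The G45-2 set stayed below the limit with 1 of 7 differing, Kdm5d, at 29.8 CPM in its control and 0 and 0.0621 CPM with shRNA 1 and shRNA 2. In the second 42-2 set, the Y transcripts were at 1.00 to 4.08 CPM in the control. They were at 0.0687 CPM with shRNA 2, a difference at levels too low to count. Epithelial markers summed to 400 to 14671 CPM in controls and 263 to 7661 CPM in knockdowns, and 0 of the 6 were at 0 throughout a group. Of 5 macrophage markers with a row the summed level was 95.1 to 875 CPM in controls and 20.6 to 226 CPM in knockdowns, with Ptprc and Csf1r below 1 CPM in every control. The sum was mostly Cd14, with means of 401 CPM in controls and 86.6 CPM in knockdowns, beside 9.19 and 5.03 CPM for Cd68. Itgam reached 7.51 CPM in controls and 23.0 CPM in knockdowns. In knockdowns Ptprc reached 1.67 CPM and Csf1r 1.91 CPM. The sum alone therefore does not show macrophages in the cultures, and whether any were present was not tested. In bulk samples, fewer cells of a type and less RNA per cell cannot be told apart.

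Sirt6 RNA (ENSMUSG00000034748), the transcript of the gene that is floxed in 5 of the 6 lines, was found in every library. In NT controls it ranged from 5.78 to 19.01 CPM with a median of 11.5 CPM, and in knockdowns from 9.52 to 19.004 CPM with a median of 16.9 CPM. The libraries of the lines labelled with floxed Sirt6 were thus not at 0. In controls they lay on both sides of line 13-2, and in knockdowns all 9 lay below its shRNA 1 library. The labels do not say which exons are flanked by the recombination sites, and the table counts whole genes, so these levels do not check whether the alleles were recombined. By line, the controls ran in the order G45-2 (19.01 CPM), 6-3 (15.0 CPM), 13-2 (10.9 CPM), 42-3 (8.91 and 12.1 CPM), 42-2 (5.78 and 15.8 CPM) and 6-2 (7.65 CPM). The pair of 42-2 controls spanned the values of every line but G45-2, so neighbours in that order did not differ beyond the spread between controls that share a line label. Those 42-2 controls also differed in Xist (0.0494 and 41.7 CPM) and in summed epithelial markers (2344 and 400 CPM), and the part of this in their spread was not tested.

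**Figure D2:**
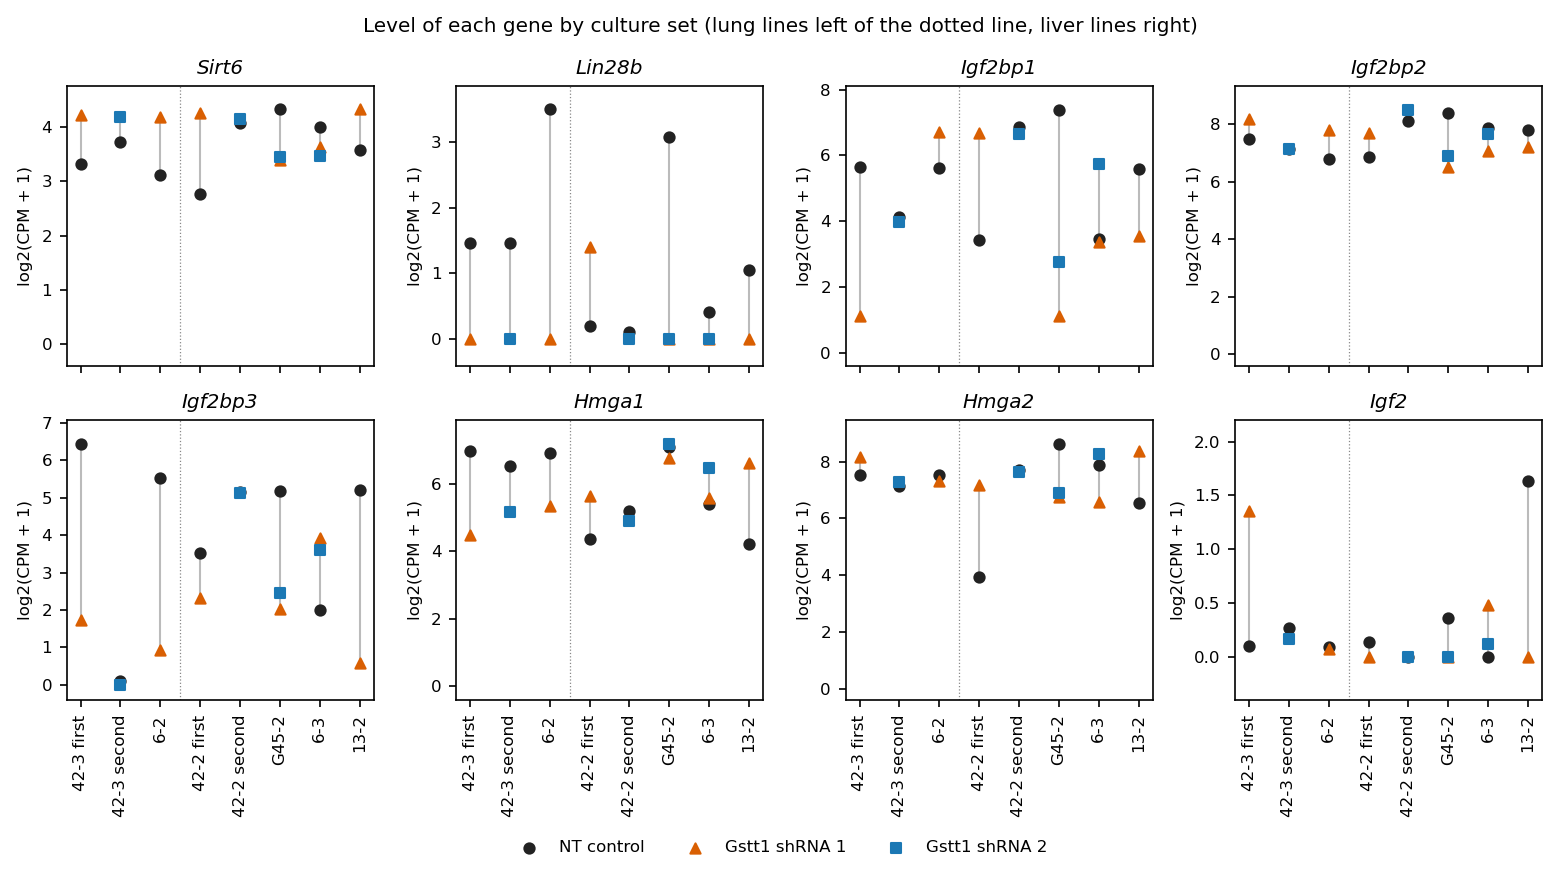
Each panel plots log2(CPM + 1) of 1 gene (vertical) in the 8 culture sets (horizontal), with circles for NT controls, triangles for Gstt1 shRNA 1 and squares for Gstt1 shRNA 2, and a grey line joining the libraries of a set. Lin28b reaches 3.49 in the 6-2 control and lies at 0 in 9 of 10 knockdown libraries, while Sirt6 stays between 2.76 and 4.32 in all 18.

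Lin28b (ENSMUSG00000063804) was a low transcript that was detected in all 8 NT controls and in 1 of 10 knockdown libraries. Controls ran from 0.0770 CPM (1 read) to 10.3 CPM (153 reads), with a median of 1.42 CPM. By line the order was 6-2 (10.3 CPM), G45-2 (7.37 CPM), 42-3 (1.77 and 1.75 CPM), 13-2 (1.08 CPM), 6-3 (0.341 CPM) and 42-2 (0.148 and 0.0770 CPM). The repeated controls of lines 42-3 and 42-2 lay close together, and the lines spread over more than the range within either. In knockdown libraries, 9 of 10 held 0 reads, and the first 42-2 set held 22 reads (1.64 CPM) against 3 reads (0.148 CPM) in its control, a ratio of 1108% (exact 95% interval 333% to 5781%, which covers counting error only).

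Set against 3 reads in the knockdown library, Lin28b was at least 66.8-fold lower in line 6-2 and at least 46.2-fold and 39.6-fold lower with shRNA 1 and shRNA 2 in line G45-2. It was at least 15.1-fold lower in the first 42-3 set, 5.12-fold lower in line 13-2 and 4.91-fold lower in the second 42-3 set. In line 6-3 the control held 5 reads, so the bounds were 1.43-fold and 1.36-fold, and the second 42-2 set, with 1 read against 0, allows no comparison. All these bounds take the control count as exact, so they are too high where the control held few reads. With 5 reads in the control, those of line 6-3 do not show a decrease. Between the hairpins of line 6-3, Lin28b was at 0 with both, while Gstt1 was at 75.4% (shRNA 1) and 0.982% (shRNA 2) of its control level. Of 12931 genes tested, Lin28b was the single gene (0.00773%) that was detected in all 8 controls and held 0 reads in at least 9 of 10 knockdowns, a criterion chosen after its values were seen. Lin28b passed the filter on low values mainly through its controls. Genes under the filter were not counted, so the share does not measure how rare the pattern is.

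The insulin-like growth factor 2 mRNA-binding protein genes varied more than Sirt6. Igf2bp1 (ENSMUSG00000013415) ranged from 9.78 to 165 CPM in controls (median 47.9 CPM) and from 1.17 to 103 CPM in knockdowns (median 12.8 CPM). It differed in opposite directions between sets, from 165 to 1.17 and 5.84 CPM in line G45-2 and from 9.78 to 101 CPM in the first 42-2 set. Within line 6-3 it was at 9.95 CPM in the control, 9.30 CPM with shRNA 1 and 52.0 CPM with shRNA 2. Its controls in line 42-2 stood 11.8-fold apart (9.78 and 116 CPM), so controls of 1 line label differed about as widely as the lines did.

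Igf2bp2 (ENSMUSG00000033581), the member of the family that many adult tissues keep, ranged from 109 to 338 CPM in controls (median 201 CPM) and from 91.2 to 358 CPM in knockdowns (median 176 CPM). The groups overlapped almost wholly. By line, controls ran in the order G45-2 (338 CPM), 6-3 (235 CPM), 13-2 (222 CPM), 42-2 (116 and 274 CPM), 42-3 (180 and 141 CPM) and 6-2 (109 CPM).

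Igf2bp3 (ENSMUSG00000029814), a family member that is largely foetal, ranged from 0.0674 to 85.4 CPM in controls (median 34.9 CPM) and from 0 to 33.7 CPM in knockdowns (median 3.52 CPM). The controls of line 42-3 held 1159 reads (85.4 CPM) in the first set and 1 read (0.0674 CPM) in the second, the widest split between repeated controls among the 8 genes. In knockdowns it stood at 1.38% of control in line 13-2 (35.9 to 0.495 CPM), 2.04% in line 6-2 (45.3 to 0.921 CPM) and 2.75% in the first 42-3 set (85.4 to 2.35 CPM). In line G45-2 it stood at 8.77% and 12.7% with the hairpins (35.2 to 3.09 and 4.47 CPM). Line 6-3 went the other way, from 3.00 to 14.3 and 11.1 CPM, and the second 42-2 set held 34.6 and 33.7 CPM.

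The chromatin genes Hmga1 and Hmga2 were present in every library. Hmga1 (ENSMUSG00000046711) ranged from 17.6 to 137 CPM in controls (median 66.6 CPM) and from 21.5 to 144 CPM in knockdowns (median 47.8 CPM). Controls of the lung lines lay at 91.3 to 126 CPM and those of the liver lines at 17.6 to 137 CPM, with G45-2 above all lung controls. Hmga2 (ENSMUSG00000056758), which let-7 targets at several sites, ranged from 14.2 to 389 CPM in controls (median 185 CPM) and from 94.8 to 332 CPM in knockdowns (median 158 CPM). The first 42-2 control (14.2 CPM) was far below the second (208 CPM), a 14.7-fold split within a line.

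Igf2 (ENSMUSG00000048583) was close to the limit of detection in most libraries. It reached at least 1 CPM in the 13-2 control (29 reads, 2.10 CPM) and in the first 42-3 shRNA 1 library (40 reads, 1.57 CPM). The 7 other controls held 0 to 0.288 CPM, and the 13-2 shRNA 1 library held 0 reads, at least 9.90-fold below its control against 3 reads. Line 13-2 was thus above all other lines in the controls and level with the lowest after shRNA 1. H19, the imprinted neighbour of Igf2, is not analysed here.

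The comparison of line 13-2 with the 5 lines labelled with floxed Sirt6 asks whether the group differs in the line without that label. With 1 such line, Sirt6 genotype cannot be told apart from any other trait of line 13-2. The comparison was fitted with limma on log2(CPM + 1), first over NT controls averaged per line. With 1 line against 5 the spread comes from the other lines, and 13-2 is assumed to vary like them. Of 12931 genes, 4 (0.0309%) passed an adjusted p of 0.05, and of the 7 genes tested 0 passed, also with edgeR on recovered reads. At an unadjusted p under 0.05 it was 0 of 7, beside 8.95% of all genes. Sirt6 in line 13-2 differed from the mean of the other lines by -0.10 (SE 0.58, limma adjusted p = 0.969), with 3 lines below it and 2 above. Lin28b differed by -0.66 (SE 1.29, adjusted p = 0.892). Igf2bp1 differed by 0.31, Igf2bp2 by 0.22 and Igf2bp3 by 1.15, with adjusted p of 0.951, 0.913 and 0.794. Hmga2 differed by -0.90 (SE 0.86, adjusted p = 0.766).

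Hmga1 was lowest in line 13-2 among the 6 lines (17.6 CPM against 19.5 to 137 CPM), a log2 difference of -1.98 (SE 0.88). The fit across all genes in limma gave an adjusted p = 0.557 (0.0565 before adjustment). The exact two-sided permutation test over lines gave p = 0.167, the smallest that 1 line against 5 allows. Line 13-2 lay outside the range of the other lines for 1 of 7 genes, beside 41.5% of all genes tested. The summed level of 7 proliferation markers was also lowest in this control (270 CPM, other controls 336 to 1341 CPM), and its part in the Hmga1 value was not tested. With no filter on low values, Igf2 differed by 1.49 in the controls (limma adjusted p = 0.0485), a call that rests on 29 reads in 1 library, and 31 genes then passed.

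**Figure D3:**
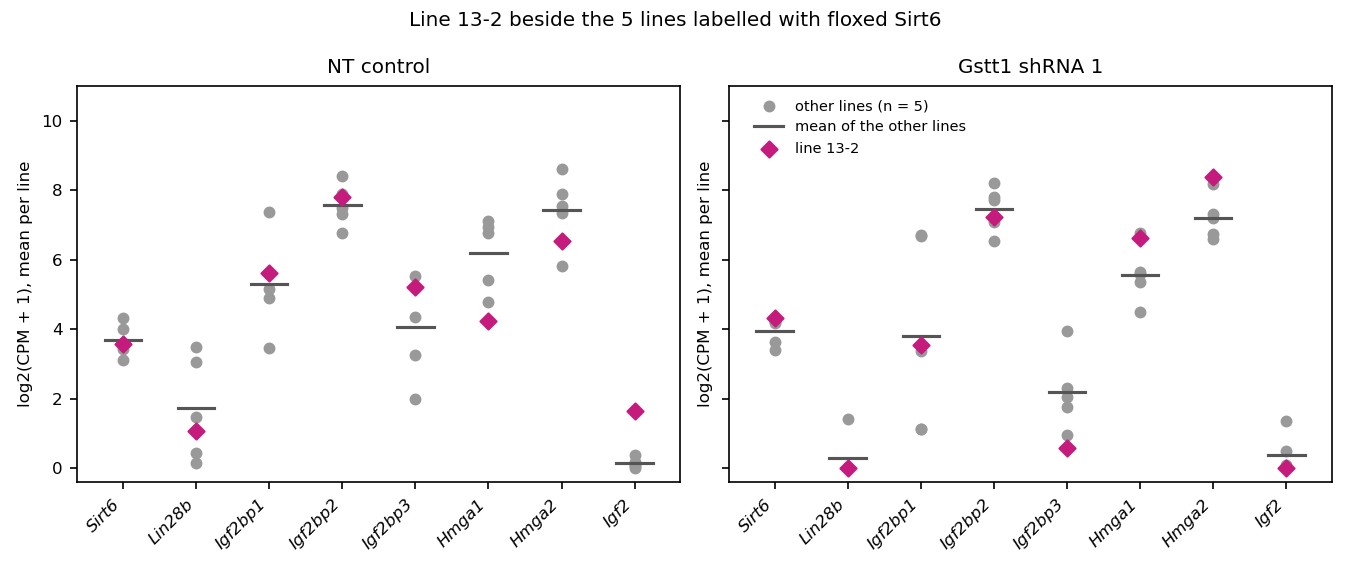
Mean log2(CPM + 1) per line (vertical) is plotted for each gene, with a diamond for line 13-2, grey points for the 5 lines labelled with floxed Sirt6 and a bar for their mean, for NT controls (left) and Gstt1 shRNA 1 libraries (right). Line 13-2 is lowest for Hmga1 among controls and highest for Sirt6 and Hmga2 after shRNA 1.

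The order of the lines did not repeat in the 6 shRNA 1 libraries. Hmga1 was at 97.7 CPM in line 13-2, above 4 of 5 other lines (21.5 to 108 CPM), a difference of 1.06 (SE 0.76, adjusted p = 1.00). Hmga2 was highest in line 13-2 (332 CPM against 94.8 to 286 CPM), a difference of 1.18 (SE 0.60, limma p = 0.0860, adjusted p = 1.00; exact permutation p = 0.167, the smallest allowed). Sirt6 was also highest there (19.004 CPM against 9.52 to 18.1 CPM), by 0.39 (SE 0.70). Igf2bp3 was lowest (0.495 CPM against 0.921 to 14.3 CPM), by -1.61 (SE 1.08). Of the 7 genes, 3 lay outside the range of the other lines, beside 24.5% of all genes tested, and 0 of 7 passed the adjusted threshold, beside 0% of all genes. At an unadjusted p under 0.05, 260 genes (2.01%) and 0 of the 7 passed.

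The libraries of line 13-2 bear on both fits. Its shRNA 1 library was more like the second 42-3 shRNA 2 library (Pearson r = 0.963 across genes) than like its own control (r = 0.874). Cdkn2a was at 110 CPM in the 13-2 control and 0.0706 CPM in its shRNA 1 library. Control and knockdown of this line also carry different library codes (CFa11 and CFa12), so the code and the treatment cannot be told apart there. The same codes separate the control of line 6-3 from its knockdowns. Within code CFa11, controls of 13-2 against G45-2, the second 42-3 set and 6-3, the Hmga1 difference was -2.13 (limma adjusted p = 0.585) and 0 genes in all passed.

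The comparison of Gstt1 knockdown with the NT control of the same set asked whether the treatment moved the group. Of 12931 genes, 5 (0.0387%) passed in limma with the culture set as a block, and of the 7 genes tested 0 passed. The targeted gene Gstt1 did not pass either, at -3.27 (SE 0.67, limma adjusted p = 0.0820). At an unadjusted p under 0.05, 2 of 7 passed, Lin28b and Igf2bp3, beside 17.1% of all genes. Of 7 proliferation markers, 7 were higher in knockdowns (median 1.02), beside 47.0% of all genes. At an unadjusted limma p under 0.05 there were 6 of these 7, and 0 passed. Their summed levels were 270 to 1341 CPM in controls and 719 to 2626 CPM in knockdowns. Of 6 epithelial markers, 6 were lower (median -1.35), 3 at an unadjusted limma p under 0.05, and 0 passed. Fibroblast markers summed to 5.79 to 2917 CPM in controls and 4.08 to 6452 CPM in knockdowns. The part of any of these markers in the results was not tested. Lin28b differed by -1.26 in log2(CPM + 1), with an SE of 0.46. The limma fit gave an adjusted p = 0.203 (0.0185 before adjustment). It was lower in 7 of 8 sets, 1 of them the second 42-2 set with 1 read against 0, and flipping signs over the 8 sets (exact permutation test, two-sided) gave p = 0.0547 before adjustment, with 0.00781 the smallest possible. The sign-flip test and the fit treat the 8 sets as independent, though lines 42-3 and 42-2 gave 2 each. edgeR on the recovered reads gave an adjusted p of 0.166. Without the 5 sets of differing identity transcripts the difference was -1.34 (adjusted p = 0.479), from 128 reads against 0 and 0 in line G45-2, 5 against 0 and 0 in line 6-3 and 1 against 0 in the second 42-2 set. Of the sets kept, G45-2 differed in the identity transcript Kdm5d, and in 6-3 control and knockdowns differed in library code. The second 42-2 set differed in Y transcripts at levels too low to count.

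Igf2bp3 was lower by -1.75 (SE 0.67, limma p = 0.0226, adjusted p = 0.215), in 7 of 8 sets (exact sign-flip permutation p = 0.0703, unadjusted). The second 42-3 set, 1 of the 7, held 1 read against 0. Without the 5 sets the difference was -0.45 (adjusted p = 0.874), and the direction then rested on line G45-2, since line 6-3 was higher with both hairpins and the second 42-2 set stood at 97.2% of control. Thus 2 of 7 genes were lower in at least 7 of 8 sets, beside 10.5% of all genes, and 0 of 7 were higher in as many, beside 6.65%.

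The other genes differed both ways. Sirt6 was higher in 6 of 8 sets, by 0.29 in the fit (SE 0.28, limma adjusted p = 0.642), and stood at 50.1% and 51.9% of control in line G45-2 and 75.8% and 67.2% in line 6-3. Without the 5 sets its difference turned to -0.48 (adjusted p = 0.581). Igf2bp1 was lower in 5 of 8 sets (-0.83, SE 0.87, adjusted p = 0.666), and Igf2bp2 differed by -0.06 (SE 0.29, adjusted p = 0.939). Without line G45-2 they turned to 0.03 and 0.23. Hmga1 differed by -0.15 (SE 0.46, adjusted p = 0.900) and Hmga2 by 0.28 (SE 0.48, adjusted p = 0.802), and they turned to 0.02 and -0.98 without the 5 sets. Igf2 was lower in 5 sets and higher in 2, at levels near the detection limit.

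**Figure D4:**
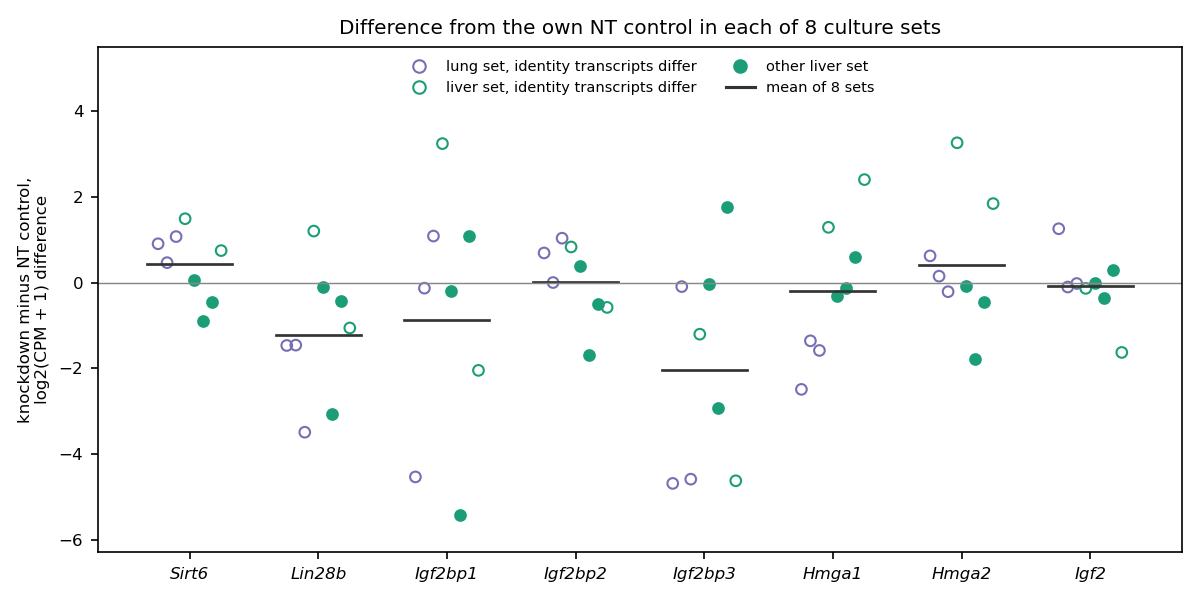
Each point is the knockdown minus NT control difference of log2(CPM + 1) in 1 culture set (vertical) for each gene (horizontal), the mean of both hairpins where a set has them, with purple for lung sets, green for liver sets, open circles for the 5 sets of differing identity transcripts and a bar for the mean of 8 sets. Lin28b and Igf2bp3 are below 0 in 7 of 8 sets, and the 3 lung sets of Hmga1 lie between -2.49 and -1.36.

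Hmga1 was lower in all 3 lung sets, at 17.1% of control in the first 42-3 set, 38.3% in the second and 32.8% in line 6-2. In liver sets it stood at 554% of control in line 13-2, 252% in the first 42-2 set and 80.1% in the second, 79.3% and 105% with the hairpins of line G45-2, and 111% and 208% with those of line 6-3. The difference between the sites, tested as an interaction in limma, was -2.52 with an SE of 0.62. The limma fit gave an adjusted p = 0.109 (0.00207 before adjustment), so it did not pass. For Lin28b that interaction was -1.32 (SE 0.91, adjusted p = 0.474). The 3 lung sets come from lines 42-3 and 6-2 only, so they are not independent. All 3 lung sets are among those whose identity transcripts differ, so site and that difference cannot be told apart there.

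The comparison of lung with liver lines used the same NT controls as those above, averaged per line, and so is not independent of them. In it, 4 of 12931 genes (0.0309%) and 0 of the 7 passed. Igf2bp2 was lower in lung lines (109 to 180 CPM against 116 to 338 CPM), by -0.84 (SE 0.31). The limma fit gave an adjusted p = 0.325 (0.0271 before adjustment). It was the single gene of the 7 at an unadjusted p under 0.05, beside 13.1% of all genes. Hmga1 was higher by 1.46 (SE 0.72, adjusted p = 0.435) and Lin28b by 1.30 (SE 0.92, adjusted p = 0.563). Within library code CFa8, where the liver side is the first 42-2 control alone, Hmga1 (2.60, adjusted p = 0.0249) and Hmga2 (3.61, adjusted p = 0.0165) passed among 838 of 12931 genes (6.48%). That fit sets 1 library against 2, so its spread comes from the pair of lung controls alone, and the 42-2 control in it is the one with the low Hmga2 value (14.2 CPM). Within code CFa11, with the second 42-3 control as the lung side, 0 of 7 and 0 genes in all passed.

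Genes around the axis were counted from lists. In the 13-2 controls, 17 genes of let-7 processing and turnover (Drosha, Dicer1, the Argonautes, the uridylyltransferases and others) showed 11 higher and 6 lower, 0 past the threshold, with a median of 0.16 beside 0.02 for all genes. The smallest p were those of Eif2c2, the Argonaute that slices its targets (-1.07, limma adjusted p = 0.571), and the RNA helicase Ddx5 (0.69, adjusted p = 0.595). Under knockdown the same list had 14 of 17 higher (median 0.15, all genes -0.03) and 0 past the threshold. Xpo5, which exports the precursor from the nucleus, differed by 0.65 and Dis3l2, which degrades the tailed precursor, by 0.36, with limma adjusted p of 0.379 and 0.381.

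Of 23 other let-7 targets, 0 passed in either comparison. In the 13-2 controls 13 were higher (median 0.26), among them the nuclear receptor Nr6a1 (1.43, limma adjusted p = 0.539). Under knockdown 13 were higher (median 0.06). The cyclin Ccnd2 differed by -0.77 (limma adjusted p = 0.228) and the transcription factor Plagl2 by 0.57 (adjusted p = 0.230). Of 414 tested genes with an 8-base match in the 3′UTR the median knockdown difference was 0.02, beside -0.03 for 11239 tested genes with a 3′UTR. Of the 414, 1 passed, and of the 11239, 5 passed. In the 13-2 controls those medians were 0.13 and 0.03.

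In the IGF list, 10 of 12 genes were tested and 0 passed. Igfbp3, a secreted protein that binds IGFs, was at 0.0723 CPM (1 read) in the 13-2 control, 1095 CPM in its shRNA 1 library and 4.31 to 620 CPM in the other controls, a difference of -7.40 in controls (SE 1.45, limma adjusted p = 0.377). The insulin receptor substrate Irs2 was highest in the 13-2 control (186 CPM against 18.9 to 112 CPM, difference 2.10, adjusted p = 0.553). Under knockdown the growth factor Igf1 differed by 1.09 (limma adjusted p = 0.247) and its receptor Igf1r by 0.46 (adjusted p = 0.261), Igf1r being higher in 9 of 10 knockdown libraries than in the own control.

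Among the other sirtuins, 0 of 6 passed in either comparison. In the 13-2 controls the deacetylases Sirt1 and Sirt2 differed by 1.03 and 0.27 (limma adjusted p = 0.666 and 0.804). Under knockdown Sirt1 differed by 0.97 (limma adjusted p = 0.176) and the nucleolar Sirt7 by -0.63 (adjusted p = 0.282). In a list of 11 genes drawn up for glycolysis under SIRT6 repression, which also counts Hif1a, 4 were higher and 7 lower in the 13-2 controls (median -0.60) and 0 passed. Pdk4, an inhibitor of pyruvate dehydrogenase, was at 92.2 CPM there against 1.61 to 28.7 CPM (4.06, adjusted p = 0.418), and hexokinase Hk2 at 44.1 CPM against 57.3 to 167 CPM (-1.33, adjusted p = 0.432). Under knockdown 3 were higher and 8 lower (median -0.24), with 0 past the threshold. There Pdk4 differed by -1.96 and the phosphofructokinase Pfkm by -0.74, with limma adjusted p of 0.176 and 0.159.

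Of 10 imprinted and foetal genes, 5 were tested. The paternally expressed Mest passed in the 13-2 controls, at 72.5 CPM against 0.0674 to 2.62 CPM in the 7 other controls, a difference of 5.28 (SE 0.52, limma adjusted p = 0.0427). It was at 3.74 CPM in the 13-2 shRNA 1 library, within the 1.72 to 34.5 CPM of the other 9 knockdown libraries. No gene at all passed when the controls of code CFa11 alone or the liver lines alone were compared. Under knockdown 0 of 5 passed, with Cdkn1c, an imprinted cell-cycle inhibitor, at -1.0 (limma adjusted p = 0.143) and the maternally expressed RNA Meg3 at -0.81 (adjusted p = 0.380).

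Across the 18 libraries, which share lines and depth, the genes whose log2(CPM + 1) ran most like Sirt6 were Rbms2 (Pearson r = 0.90), Tnfsf9 (r = 0.87) and Zwint (r = 0.86). For Lin28b they were Hoxb6 (r = 0.81), Gm9844 (r = 0.81) and Serpinb11 (r = 0.80). These are low genes too, with means of 2.69, 1.29 and 0.588 CPM, and Lin28b itself was at 0 in 9 of 18 libraries. For Hmga2 they were Elk3 (r = 0.82), Carhsp1 (r = 0.80) and Sowahc (r = 0.78). Among the 7 genes, Sirt6 ran with Hmga2 (r = 0.66) and Igf2bp2 (r = 0.65) and not with Lin28b (r = -0.13). Each r is a description over 18 libraries that are not independent.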

How the data were processed

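RNA was measured in 18 samples. Per the labels' protocols, libraries were made from 1.3 µg of total RNA with a TruSeq kit. The authors deposited 1 table of CPM values (read counts scaled to a common total) for 16383 genes. Per the submitters' processing notes the build was mm9. The aligner, the counter, the annotation and filters, if any, were not given in the sources used here. CPM values were whole multiples of 1 read in 100% of cases (tolerance 0.01 reads), which gave each library's total and recovered reads.

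Members and lists were chosen with earlier results of these data known. Genes with at least 1 CPM in at least 4 libraries were kept (12931), and log2(CPM + 1) was tested with limma 3.58.1 (trend, R 4.3.3) and Benjamini-Hochberg adjustment over all of them, past the threshold meaning under 0.05. Line comparisons used the mean of each line, and the knockdown comparison used the culture set (a control with the knockdowns of its own line) as a block. Control and knockdowns shared a library code in each set except 6-3 and 13-2, where the control carried CFa11 and the knockdowns CFa12. The 1 added to CPM understates differences of low genes. Single genes also had exact two-sided permutation tests over 6 lines or exact sign-flip tests over 8 sets. Within each list the 2 genes of smallest p are named, and any that passed, except that 1 is not reported here. For likeness of pattern, the 3 genes of highest Pearson r over 18 libraries are named. Shared sources did not show in all sets. The deviations of a knockdown library and its own control from their group means correlated at -0.36 to 0.70 (median 0.02, over 0.1 in 4 of 10). No 2 libraries agreed within sampling noise (smallest chi-square per degree of freedom 35.1).

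Alternatives were pseudocounts of 0.5 and 2, other filters, median-ratio rescaling, edgeR 4.0.16 on recovered reads, other blocks, and libraries left out. On simulated data of 12931 genes with 200 changed, limma found 13% of 4-fold and 60% of 16-fold changes for line 13-2 controls (14 false calls), 1% and 41% for line 13-2 with shRNA 1 (3 false calls), 85% and 99% for knockdown (8 false calls), and 41% and 90% for lung against liver (12 false calls). Changed genes were drawn only from genes well above the level of Lin28b. Each gene had the same mean in all libraries before the change, and a change was equal in every set. These rates describe the simulated data, which were thus simpler than the real libraries, and are not split by gene level or culture set. Recovery of a gene as low as Lin28b (mean 1.36 CPM over 18 libraries) was not tested. Intervals cover counting error only. Limits of detection, and the fold bounds set against 3 reads, cover that of the knockdown count and not that of the control.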

Additional observations from a re-analysis of the deposited data

Results flagged for a closer look

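Lin28b in the first 42-2 shRNA 1 library (22 reads) stood apart from the other 5 shRNA 1 libraries, which held 0 reads. Its gap to the nearest of them was 1.00 of the whole range of log2(CPM + 1), a value that any reads at all would have given beside 5 libraries at 0. Hmga2 in the first 42-2 control (14.2 CPM) stood below the other 7 controls, which ran from 91.8 to 389 CPM, with a gap of 0.558 of the range. Of 21 groups of values examined in this way, 2 were singled out, and chance flags about 1 in 20 groups. Both libraries belong to the first 42-2 set, where 2 of 7 identity transcripts differed between control and knockdown.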

How the results depend on the processing

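Of the 7 genes tested, 0 passed in any comparison under any alternative run, except Hmga1 and Hmga2 (2 genes) between lung and liver controls of library code CFa8. For line 13-2 controls the 4 calls became 31 with no filter, 1 with edgeR, 0 to 54 with a line left out (54 without 42-2, 0 without 6-2), and 0 with liver lines only, code CFa11 only, all 18 libraries, or without lines 42-3, 6-2 and 42-2. For shRNA 1 the count of 0 became 38 with no filter. For knockdown the 5 calls became 0 with no filter, with edgeR, without the 5 sets of differing identity transcripts, without sets 6-3 and 13-2, and with sets G45-2 and 6-3 only, and 0 to 8 with a set left out. For lung against liver the 4 calls became 2 with a pseudocount of 0.5, 18 with no filter, 14 with a filter of 5 CPM, 1 with edgeR, 78 with a correlation within line, 0 in code CFa11, 838 in code CFa8, and 0 to 167 with a line left out (167 without 6-3). The cause was not tested.

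Knockdown was fitted with the culture set as a block. With no replicate block 84 genes passed, and 51 with the cell line as the block, and no call on the 7 genes changed.

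Directions turned as follows, in log2(CPM + 1), and the cause was not tested. In line 13-2 controls, fitting all 18 libraries gave 0.17 for Sirt6, -0.17 for Igf2bp3 and 0.23 for Hmga2, edgeR gave -0.34 for Igf2bp1, and Igf2bp2 became -0.12 with liver lines, -0.012 in CFa11 and -0.34 without the 3 lines. Leaving out a line spanned -0.24 to 0.066 for Sirt6 and -0.16 to 0.83 for Igf2bp1. With shRNA 1, Igf2bp1 spanned -0.91 to 0.48, Igf2bp2 became 0.12 with liver lines, and in code CFa12 alone, untested, they were 0.19 and 0.15. Under knockdown, without the 5 sets, Sirt6 was -0.48, Hmga1 0.016 and Hmga2 -0.98, and with G45-2 and 6-3 only -0.68, 0.23 and -1.12. Without 6-3 and 13-2, Igf2bp2 was 0.085. Leaving out a set spanned -1.40 to 0.030 for Igf2bp1, -0.20 to 0.23 for Igf2bp2, -0.47 to 0.13 for Hmga1 and -0.072 to 0.66 for Hmga2. Between lung and liver, code CFa8 gave 0.45 for Sirt6, 2.21 for Igf2bp1 and 0.27 for Igf2bp2, code CFa11 gave -0.056 for Lin28b, -4.03 for Igf2bp3 and -0.53 for Hmga2, edgeR gave -0.17 for Hmga2, and a correlation within line gave -0.31 for Igf2bp3. Leaving out a line spanned -0.79 to 0.52 for Igf2bp1, -0.92 to 1.35 for Igf2bp3 and -0.24 to 0.69 for Hmga2.

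Lin28b did not pass the filter of 5 CPM, and without line 42-2 its shRNA 1 values were all 0, so neither gave a value. Lin28b and Igf2 were near the depth limit, 0.117 to 0.357 CPM for 3 reads, in many libraries.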
